A study of Mus musculus with 8 samples.

Results

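To examine how the H3K27-me3 mark lies around the genes of lipid breakdown in fasted mouse liver, all enriched regions near 8 lipase genes were described. The genes were Pnpla2, Lipe, Mgll and Pnpla5 of cytosolic lipid breakdown, Lipa of the lysosome, and Lpl, Lipc and Lipg of the vessel wall. They were chosen by name from the 21938 protein-coding genes of the annotation, with earlier results of these data known. Their counts against all genes are therefore descriptive. Every region over a gene body or within 50 kb of a start site was taken. Near these genes lay 71 of the 59267 regions of the AAV-Cre list and 104 of the 34586 regions of the AAV-GFP list.

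Triglyceride in a liver cell is stored in lipid droplets, and neutral lipases at the droplet surface release its fatty acids in steps, first to diglyceride, then to monoglyceride and then to glycerol. Acid lipase in the lysosome hydrolyses lipid delivered by endocytosis or by autophagy of droplets, while the secreted vascular lipases act on lipoproteins in the blood. H3K27-me3 is trimethylated lysine 27 of histone H3, a mark laid down by Polycomb complexes and associated with silent genes, and JMJD3, encoded by Kdm6b, is a demethylase that removes it.

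The livers were from male C57BL/6 mice, all carrying the floxed Jmjd3 allele. They received AAV-TBG-Cre or the control virus AAV-GFP when 8 weeks old, and 12 weeks later were fasted for 16 h. The TBG promoter directs Cre to hepatocytes, whereas chromatin was taken from whole liver, so that a change in part of the cells and a change in the mixture of cells cannot be told apart. H3K27-me3 ChIP-seq was done with 2 libraries per virus group and 2 input libraries per group served as background. Each deposited list pools both livers of its group, so there were 2 lists and no value per mouse, and no difference between the lists could be tested or set against the spread between mice. The lists also do not show whether Jmjd3 was deleted.

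The sequences below show the places on which the results turn. The first 3 are the 250 bases before a RefSeq start site (GRCm38.p6, written along the gene). They are a promoter under a region in both lists (Pnpla5), the promoter nearest to a region found only in AAV-Cre (Lipc), and a promoter with 12 CG under no region (Pnpla2). The last 2 are the 200 bases around the summit, the point of highest enrichment, of the AAV-Cre regions nearest to Lipc and to Mgll (mm10, plus strand). Capitals mark each CG, the dinucleotide that is dense in CpG islands and reads the same on both strands.
Pnpla5 promoter, chr15:84123176-84123425, minus strand: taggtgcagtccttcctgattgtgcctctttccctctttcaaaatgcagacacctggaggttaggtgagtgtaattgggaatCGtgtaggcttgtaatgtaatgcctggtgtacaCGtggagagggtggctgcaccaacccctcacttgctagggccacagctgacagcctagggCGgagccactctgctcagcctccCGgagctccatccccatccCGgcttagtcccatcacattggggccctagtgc
Lipc promoter, chr9:70952222-70952471, minus strand: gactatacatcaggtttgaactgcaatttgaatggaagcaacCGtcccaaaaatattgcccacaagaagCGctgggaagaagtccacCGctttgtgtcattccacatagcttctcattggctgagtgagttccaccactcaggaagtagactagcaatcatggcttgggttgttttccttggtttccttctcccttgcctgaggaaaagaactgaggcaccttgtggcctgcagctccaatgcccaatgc
Pnpla2 promoter, chr7:141454938-141455187, plus strand: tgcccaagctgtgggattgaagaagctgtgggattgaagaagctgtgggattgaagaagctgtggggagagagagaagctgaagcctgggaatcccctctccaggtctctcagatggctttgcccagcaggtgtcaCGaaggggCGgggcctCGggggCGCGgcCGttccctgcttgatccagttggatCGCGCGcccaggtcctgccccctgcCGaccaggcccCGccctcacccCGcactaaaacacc
Lipc AAV-Cre summit, chr9:70954420-70954619, plus strand: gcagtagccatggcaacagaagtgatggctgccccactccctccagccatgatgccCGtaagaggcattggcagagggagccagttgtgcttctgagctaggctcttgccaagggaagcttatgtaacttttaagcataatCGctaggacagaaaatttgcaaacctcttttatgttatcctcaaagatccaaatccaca
Mgll AAV-Cre summit, chr6:88711454-88711653, plus strand: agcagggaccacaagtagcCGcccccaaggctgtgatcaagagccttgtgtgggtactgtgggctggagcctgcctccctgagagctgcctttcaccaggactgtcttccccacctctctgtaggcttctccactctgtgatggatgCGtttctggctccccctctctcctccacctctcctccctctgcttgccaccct
The Pnpla5 promoter held 5 CG and was covered over all 250 bases in both lists. The Lipc promoter held 3 CG and the Pnpla2 promoter 12, and neither was covered at any base in either list. At least 1 CG was present in 92.1% of all 32851 RefSeq promoters of this length, with a median of 6. As many CG as at Pnpla2 were held by 33.5% of them. Of these promoters, 16.9% were touched by an AAV-Cre region and 8.76% by an AAV-GFP region. The median was 9 CG in promoters touched by an AAV-Cre region and 14 in those touched by an AAV-GFP region. In promoters not touched by an AAV-Cre region it was 5, so these single promoters do not stand for the whole. The summit windows near Lipc and Mgll held 2 CG each, and 72.2% of all AAV-Cre summit windows of 200 bases held 2 or more. Promoters were matched for 6 of the 8 genes, all but Lpl and Lipg.

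The lists differed as a whole. The AAV-Cre regions covered 73.7 Mb with a median width of 753 bp and none under 300 bp, and the AAV-GFP regions covered 14.9 Mb with a median of 231 bp and none under 120 bp. The lists also differed in the peak call itself, since 88.6% of AAV-Cre regions and 46.8% of AAV-GFP regions had a q-value of 0.05 or lower, and the read depth behind each list is unknown. Fold enrichment over the local input, the p-value and a region's rank by p-value are therefore given only within a list. For reference, 0 of 10 hepatocyte genes such as Alb lay within 15 kb of a region in either list. In both lists 10 of 10 developmental regulators such as Pax6 did, where all genes gave 41.5% (AAV-Cre) and 27.9% (AAV-GFP). Such regulators carry the mark in most adult tissues, so these counts do not check the tissue.

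All 8 lipase genes had a region over the gene body or within 50 kb in AAV-Cre, against 62.2% of all genes, and 6 of 8 did in AAV-GFP, against 47.2%. Mgll and Lipc had regions in AAV-Cre only, 2 of 8 genes against 17.1% of all genes. Within 15 kb of a start site, the window used by the study, 7 of 8 genes had an AAV-Cre region, all but Lipa, against 41.5% of all genes. In AAV-GFP 3 of 8 did, namely Pnpla2, Lpl and Pnpla5, against 27.9%. Lipe, Mgll, Lipc and Lipg were thus marked in AAV-Cre only, 4 of 8 genes against 14.8% of all genes, and 0 were marked in AAV-GFP only, against 1.22% of all genes.

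Within 5 kb of a start site, 4 of 8 genes had an AAV-Cre region (Lipc, Lipg, Lpl and Pnpla5), against 30.1% of all genes, and 2 of 8 had an AAV-GFP region (Lpl and Pnpla5), against 20.5%. Lipc and Lipg were marked in AAV-Cre only at this distance, 2 of 8 against 10.2%. Within 1 kb the marked genes were Lpl and Pnpla5 in both lists, 2 of 8, where all genes gave 23.9% (AAV-Cre) and 16.6% (AAV-GFP). The same 2 genes had a region over the start site itself, against 19.5% and 11.0% of all genes. They were also the genes with a region over the body, against 28.8% and 20.7%. The other 6 lipases had no region over any part of the gene in either list.

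**Figure D1:**
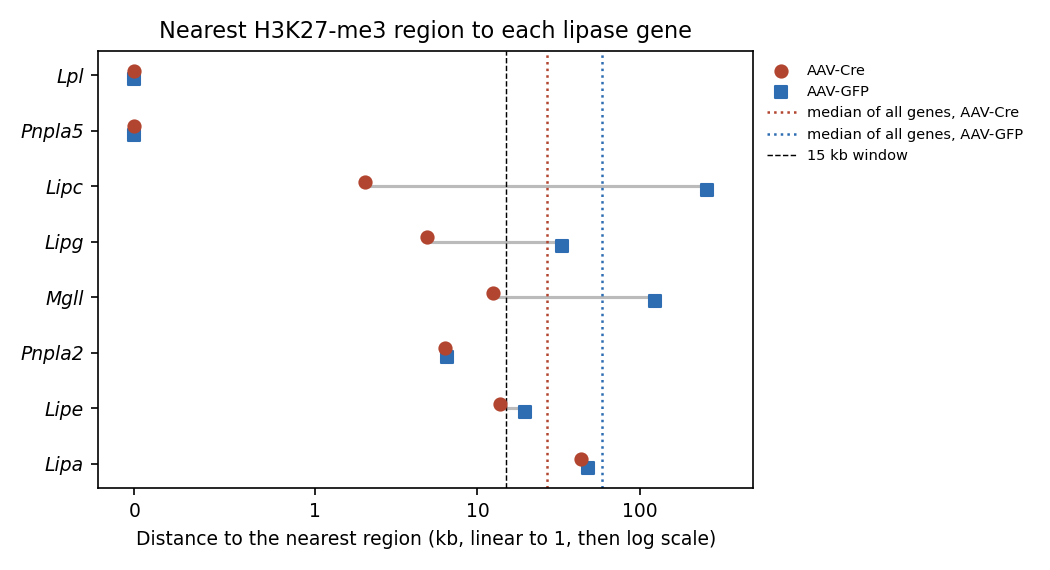
Distance in kb (linear up to 1 kb, then a log scale) from the closest start site of each lipase gene to the nearest H3K27-me3 region in the AAV-Cre list (circles) and the AAV-GFP list (squares), with 1 value per pooled list. Lpl and Pnpla5 sit at 0 in both lists, and Lipc, Lipg, Mgll and Lipe have an AAV-Cre region nearer than the 15 kb line and an AAV-GFP region beyond it, with Lipe close to the line on both sides. Dotted lines mark the medians over all genes.

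Pnpla2 encodes adipose triglyceride lipase (ATGL), which takes the first fatty acid from triglyceride. The gene lies at chr7:141455198-141460743 on the plus strand, and both lists had 2 regions in its neighbourhood, all downstream of the gene and none over it. The nearest AAV-Cre region, chr7:141461484-141462440, began 6277 bp from a Pnpla2 start site, was 957 bp wide and had a fold of 6.38 (−log10 p 22.7). The nearest AAV-GFP region, chr7:141461720-141462232, lay inside it, 6513 bp from the start site, with a width of 513 bp and a fold of 2.56 (−log10 p 5.65). The second region was 2961 bp wide in AAV-Cre and 276 bp in AAV-GFP. All 4 regions lay on exons of Cracr2b, which encodes a regulator of calcium channels and has the closest start site to each. Regions covered 3.92% of the Pnpla2 neighbourhood in AAV-Cre and 0.789% in AAV-GFP, so that the same places were marked and the covered length differed 4.97-fold, near the 4.93-fold of the whole lists.

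Lipe encodes hormone-sensitive lipase, the main diglyceride lipase, and lies at chr7:25379527-25398710 on the minus strand. There were 4 AAV-Cre and 3 AAV-GFP regions, all downstream of the gene, and Cnfn, a gene of the cornified skin envelope, had the closest start site to every one. The strongest AAV-Cre region, chr7:25366487-25369857, covered Cnfn over 3371 bp with a fold of 8.04 and ranked in the top 3.6% of its list by p-value. It held 2 of the AAV-GFP regions, the wider of them 1805 bp with a fold of 4. The region that put Lipe within 15 kb in AAV-Cre was another, chr7:25375010-25375488, at 13736 bp, which was 479 bp wide with a fold of 2.47 (q-value 0.023), in the top 75.6% of the list. In AAV-GFP the distance was 19658 bp. With a q-value of 0.01 or lower, or with the same number of regions in each list, the nearest AAV-Cre region was at 19367 bp and Lipe was marked in neither list. With the start sites of all annotated transcripts the distances were 8320 and 14242 bp and it was marked in both.

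Mgll encodes monoglyceride lipase, which completes the release of fatty acids, and spans 103949 bp at chr6:88724412-88828360 on the plus strand. It had 1 AAV-Cre region and 0 AAV-GFP regions. The AAV-Cre region, chr6:88711323-88711987, lay between genes 12425 bp upstream of the first start site, which was the closest of any gene. It was 665 bp wide with a fold of 3.47 and a −log10 p of 6.83, in the top 27.4% of the list. The nearest region in AAV-GFP lay at 124474 bp, or 26172 bp from the nearest start site when all annotated transcripts were used. The RefSeq promoters of Mgll held 23 and 40 CG, and 1.31% of all promoters held as many as the second, and neither was covered in either list.

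Pnpla5 encodes a further member of the patatin-like family to which ATGL belongs, and its body and start site were under regions in both lists. The gene lies at chr15:84112356-84123175 on the minus strand, between Sult4a1 downstream and Pnpla3 upstream. The region over its start site was 8941 bp wide in AAV-Cre (chr15:84120048-84128988, fold 5.91) and 1508 bp in AAV-GFP (chr15:84122816-84124323, fold 3.59), and ranked in the top 7.16% and 12.6% of their lists. Regions covered 80.5% of the Pnpla5 body in AAV-Cre and 20.2% in AAV-GFP.

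Around Pnpla5, the AAV-Cre list had 21 regions over 71.4% of the neighbourhood, a share reached by 0.21% of all genes. The AAV-GFP list had 53 regions over 22.7%, reached by 0.438% of all genes. Fewer regions thus covered more bases in AAV-Cre, with a median width of 2260 bp against 301 bp, and every AAV-GFP region overlapped an AAV-Cre region. When regions at most 5 kb apart were joined, the stretch through Pnpla5 was 101 kb long in AAV-Cre, reached from Sult4a1 to Pnpla3 and held 25 regions. In AAV-GFP it was 47.4 kb long with 37 regions and touched Pnpla5 alone of these genes.

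The highest fold near Pnpla5 was not at Pnpla5. In both lists it was at the start site of Sult4a1, a brain-expressed sulfotransferase, with summits 17447 bp and 17481 bp downstream of the Pnpla5 start. The region there was 6575 bp wide with a fold of 10.3 in AAV-Cre and 1909 bp wide with a fold of 4.21 in AAV-GFP. The widest AAV-Cre region, 10777 bp, ended 61 bp from the start site of Pnpla3, which encodes adiponutrin, a lipid droplet protein. The Pnpla5 start site was the closest one for 4 of the 21 AAV-Cre regions and 21 of the 53 AAV-GFP regions.

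Lipa encodes lysosomal acid lipase and was the lipase farthest from the mark in AAV-Cre. The gene lies at chr19:34492318-34527474 on the minus strand, and no region lay within 15 kb of its start site in either list. The nearest AAV-Cre region was 43552 bp upstream in an intron of the interferon-induced gene Ifit2, 327 bp wide with a fold of 2.64. In AAV-GFP the nearest was 48094 bp downstream on an exon of the noncoding Gm26902, 120 bp wide with a fold of 2.34 (q-value 0.43). An AAV-Cre region of 1184 bp covered this place too. The third AAV-Cre region, chr19:34473653-34477924, lay over Ch25h, which encodes cholesterol 25-hydroxylase, and was 4272 bp wide with a fold of 7.27. It held 3 AAV-GFP regions, which lay beyond the 50 kb limit. None of these regions had the Lipa start site as its closest. With the start sites of all annotated transcripts the nearest distances for Lipa were 22100 bp in AAV-Cre and 22473 bp in AAV-GFP, still beyond 15 kb. Regions covered 1.96% of the Lipa neighbourhood in AAV-Cre and 0.12% in AAV-GFP.

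**Figure D2:**
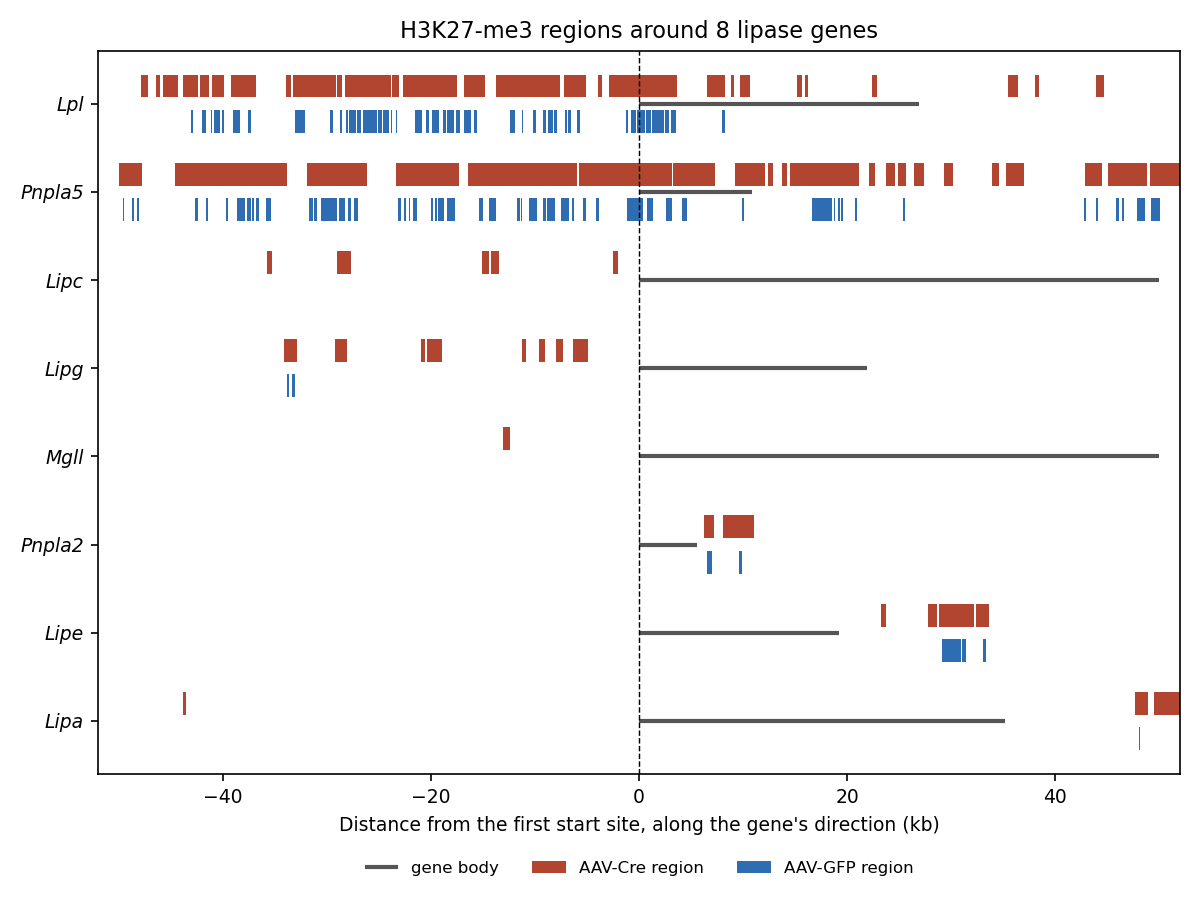
Every H3K27-me3 region near the 8 lipase genes in the AAV-Cre list (upper bars) and the AAV-GFP list (lower bars), by distance in kb from the first start site along the gene's direction, with the gene body as a grey line (drawn to 50 kb for Lipc and Mgll, and regions to 52 kb). Lpl and Pnpla5 carry 27 and 21 AAV-Cre regions and 43 and 53 AAV-GFP regions, the regions of Lipc, Lipg and Mgll all lie upstream, and those of Pnpla2 and Lipe all lie downstream of the gene.

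Lpl encodes lipoprotein lipase, which hydrolyses lipoprotein triglyceride at the vessel wall of muscle and fat and is low in adult hepatocytes. Its start site was under a region in both lists. The gene lies at chr8:68880491-68907448 on the plus strand. The AAV-Cre region over the start site, chr8:68877566-68884113, was 6548 bp wide with a fold of 11.4 and a −log10 p of 52.2, in the top 1.05% of the list. It held 7 AAV-GFP regions, among them the one over the start site, chr8:68880319-68881018, which was 700 bp wide with a fold of 5.69 and a −log10 p of 19.0, in the top 2.13%. In each list this region had the highest fold near Lpl, and the summits were 240 bp and 219 bp downstream of the start site.

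The mark at Lpl lay mostly upstream. There were 27 AAV-Cre regions over 47.5% of the neighbourhood and 43 AAV-GFP regions over 18.4%, shares reached by 0.729% and 0.802% of all genes. Of the 50 kb before the start site, 74.8% was covered in AAV-Cre and 30.2% in AAV-GFP, and of the 50 kb after it, 20.1% and 6.66%. The bin with the most cover was 20 to 30 kb upstream in both lists, at 91.5% (AAV-Cre) and 51.7% (AAV-GFP). The second highest fold was in this bin in both lists too, with summits 25924 bp and 26007 bp upstream and folds of 7.69 and 5.38. The Lpl start site was the closest for all 43 AAV-GFP regions and for 24 of the 27 AAV-Cre regions, and Ints10 was closest to the other 3.

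Downstream of the Lpl start the lists parted. The AAV-GFP regions ended 8.22 kb into the gene, and cover was 0 in each of the 4 bins from 10 to 50 kb. The AAV-Cre regions went on through the gene and past its end, to 44692 bp from the start site, with bin values of 14.8%, 5.19%, 13.2% and 7.57%. These AAV-Cre regions beyond 8.22 kb were narrow, from 338 to 970 bp, with folds of 2.28 to 4.25, and none overlapped an AAV-GFP region. In the body of Lpl regions covered 29.6% in AAV-Cre and 12.4% in AAV-GFP. When regions at most 5 kb apart were joined, the stretch through the start site was 64.2 kb long in AAV-Cre and 51.3 kb in AAV-GFP, with 47.9 kb and 43.1 kb of it upstream.

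**Figure D3:**
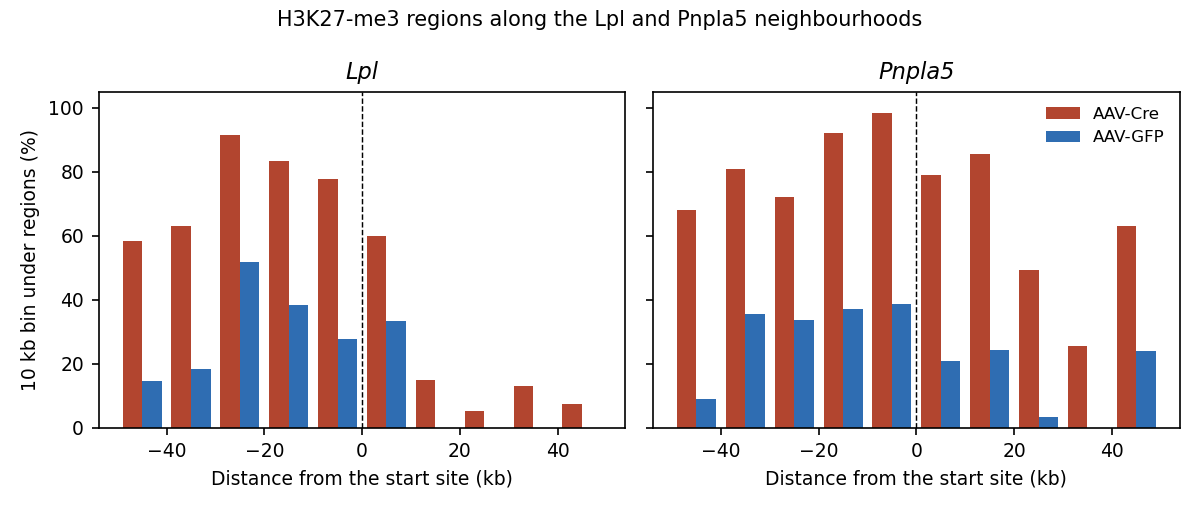
Percent of each 10 kb bin under H3K27-me3 regions, by distance in kb from the start site of Lpl (left) and Pnpla5 (right) along the gene's direction, for the AAV-Cre and AAV-GFP lists. At Lpl both lists peak 20 to 30 kb upstream and AAV-GFP is at 0 from 10 kb downstream, and at Pnpla5 cover is highest in the 10 kb before the start site in both lists, at 98.4% and 38.6%.

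**Figure D4:**
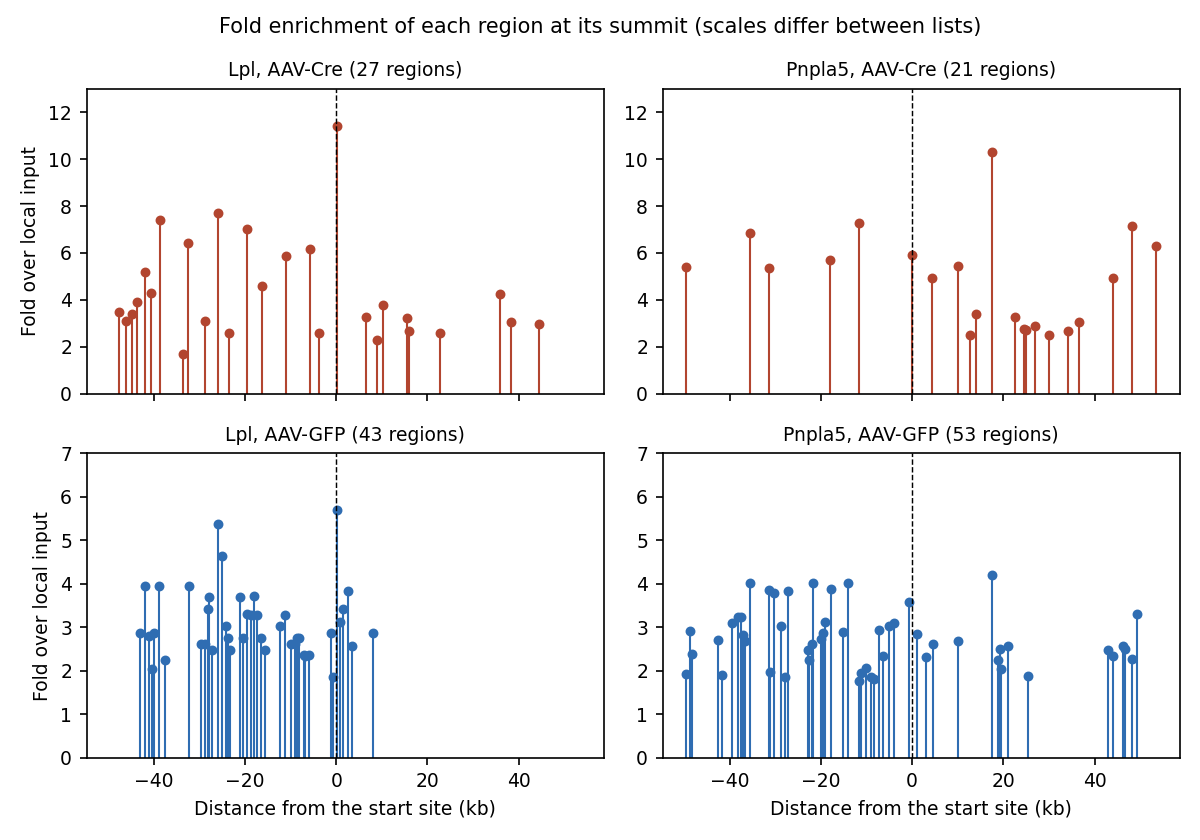
Fold enrichment over local input at the summit of each region near Lpl (left) and Pnpla5 (right), by distance in kb from the start site, in the AAV-Cre list (top) and the AAV-GFP list (bottom), whose folds are on different axes and are not compared. The highest fold lies at the start site of Lpl in both lists, and near Pnpla5 it lies 17447 bp and 17481 bp downstream, at Sult4a1.

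Lipc encodes hepatic lipase, which the liver secretes and which acts on remnant lipoproteins and HDL. It spans 154099 bp at chr9:70798128-70952226 on the minus strand and had 5 regions in AAV-Cre and 0 in AAV-GFP. All 5 lay between genes, upstream of the gene, with the Lipc start site as the closest. They began at 2042, 13452, 14419, 27667 and 35269 bp from the start site and were 489 to 1352 bp wide. Their folds were 2.53 to 2.99 and their −log10 p values 3.48 to 5.05, so that the strongest ranked in the top 43.5% of the list. The nearest, chr9:70954268-70954764, was 497 bp wide with a fold of 2.82 and a q-value of 0.003. In AAV-GFP the nearest region lay 260813 bp from Lipc, with Aldh1a2, a retinaldehyde dehydrogenase gene, as its closest, and 83.8% of all genes were as near to an AAV-GFP region or nearer. Regions covered 1.86% of the Lipc neighbourhood in AAV-Cre.

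Lipg encodes endothelial lipase, a phospholipase of the vessel wall that acts on HDL. It lies at chr18:74939322-74961263 on the minus strand and had 8 regions in AAV-Cre and 2 in AAV-GFP, all upstream. The nearest AAV-Cre region began 4910 bp from the start site and was 1461 bp wide, with a fold of 4.21 and a −log10 p of 10.2. The 4 AAV-Cre regions up to 10867 bp had Lipg as their closest start site and overlapped no AAV-GFP region. The 4 farther ones were closest to Rpl17, a ribosomal protein gene, and only the farthest, at 32876 bp with a fold of 4.82, overlapped the AAV-GFP list. It held both AAV-GFP regions, 271 and 194 bp wide, of which the nearer was at 33127 bp. When regions under 300 bp were left out, the distance in AAV-GFP was 114016 bp. Regions covered 7.49% of the Lipg neighbourhood in AAV-Cre and 0.465% in AAV-GFP.

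**Figure D5:**
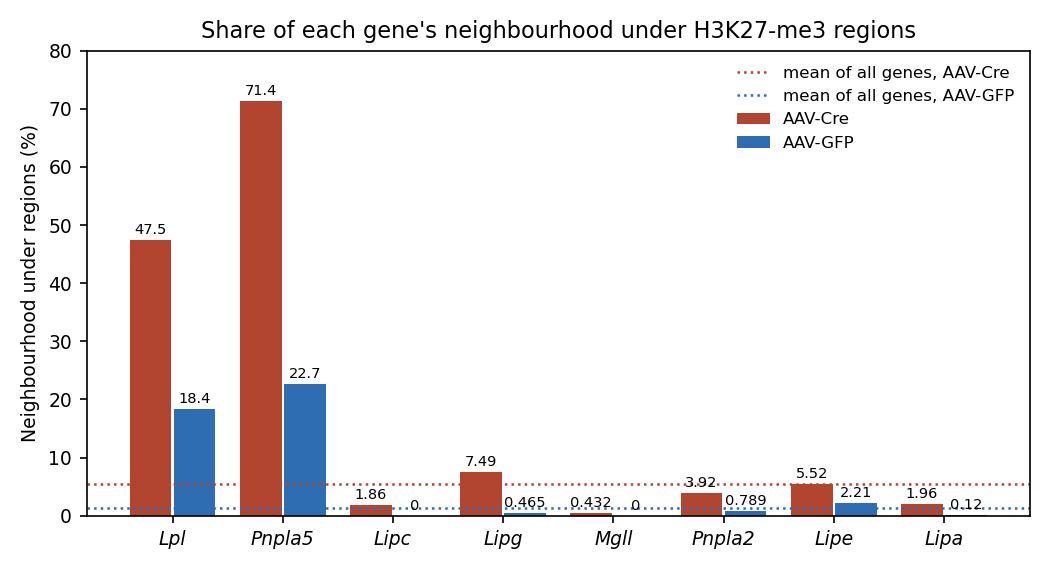
Percent of each lipase gene's neighbourhood (the gene body and 50 kb on each side of its start sites) under H3K27-me3 regions in the AAV-Cre and AAV-GFP lists, 1 value per pooled list, with dotted lines at the mean over all 21938 genes (5.4% and 1.32%). Lpl and Pnpla5 stand at 47.5% and 71.4% in AAV-Cre and 18.4% and 22.7% in AAV-GFP, and the other 6 genes lie between 0.432% and 7.49% in AAV-Cre and between 0 and 2.21% in AAV-GFP.

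Over the 8 genes together, regions covered 142762 bp in AAV-Cre and 44883 bp in AAV-GFP, or 14.8% and 4.64% of 967549 bp, a ratio of 3.18 where the whole lists gave 4.93. Lpl and Pnpla5 made up 83.3% of the AAV-Cre bases and 91.6% of the AAV-GFP bases. At these 2 genes the ratio was 2.89, and at the other 6 it was 6.29, with 23 AAV-Cre regions against 8 AAV-GFP regions. The other 6 were not alike. The ratio was 3.58 at Pnpla2, Lipe and Lipa together. By gene it was 4.97 at Pnpla2, 2.5 at Lipe and 16.4 at Lipa, so only Lipe was below the 4.93 of the whole lists. At Lipc, Lipg and Mgll together it was 25.7. AAV-GFP regions covered only 465 bp there, all of it at Lipg, whose own ratio was 16.1. None of these genes had an AAV-GFP region within 15 kb, so a high ratio follows from the grouping. Lipe and Lipa, which also lacked one, were counted in the other group. Differences between these ratios were not tested.

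All 104 AAV-GFP regions near the lipases overlapped an AAV-Cre region, against 86.4% of the whole AAV-GFP list. Of these 104, 96 were at Lpl and Pnpla5, where AAV-Cre regions covered 59.4% of the span, and 8 at the other 6 genes. Of the 71 AAV-Cre regions 34 overlapped an AAV-GFP region, or 47.9%, against 24.2% of the whole AAV-Cre list. By gene, this was 14 of 27 at Lpl, 13 of 21 at Pnpla5, 2 of 2 at Pnpla2, 2 of 4 at Lipe and 2 of 3 at Lipa. At Lipc, Lipg and Mgll, 1 of 14 did, a low share that follows from the few AAV-GFP regions there. The AAV-Cre regions that no AAV-GFP region overlapped numbered 37, of which 21 were at Lpl and Pnpla5. The median GC content of the regions near the lipases was 49.3% (AAV-Cre) and 49.1% (AAV-GFP).

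A lipase start site was the closest one for 38 of the 71 AAV-Cre regions (53.5%) and 64 of the 104 AAV-GFP regions (61.5%). At Pnpla2, Lipe and Lipa this held for 0 of 9 AAV-Cre and 0 of 6 AAV-GFP regions, so the calls of Pnpla2 and Lipe within 15 kb rested on regions closer to Cracr2b and Cnfn. At Lipc, Lipg and Mgll it held for 10 of 14 AAV-Cre regions. Against the whole lists, the median distance of the 8 genes to the nearest region was 5593.5 bp in AAV-Cre and 26392.5 bp in AAV-GFP, and over all genes 26724.5 bp and 58275 bp.

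Genes that work with the lipases or share their fold were read the same way, in 6 lists of 54 genes. Within 15 kb, 14 of 54 had an AAV-Cre region and 10 an AAV-GFP region, 9 of them in both lists, where all genes gave 41.5% and 27.9%. Of the 54 genes 5 were marked in AAV-Cre only, where all genes gave 14.8%, so these lists showed no excess. They included Lipk of the acid lipases and Gpihbp1, which carries lipoprotein lipase across the capillary wall. The others were Abhd5, the coactivator of ATGL, and the lysosomal Npc2 and Smpd1. The nearest AAV-Cre regions lay at 2600 bp for Lipk, 4682 bp for Gpihbp1, 7664 bp for Abhd5, 6922 bp for Npc2 and 11683 bp for Smpd1. The region near Npc2 was closer to the start site of Isca2, and the region near Smpd1 to that of Apbb1. Lipo2 alone was marked in AAV-GFP only, 1 of 54 genes against 1.22% of all genes, by a region of 124 bp at 9482 bp.

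By role, the other patatin-domain genes gave 2 of 5 in each list, the pancreatic-type lipases 3 of 7 in each, and the other acid lipases 3 of 8 in each. Pnpla3 was among the marked patatin-domain genes, by regions already counted at Pnpla5. Over the body or within 50 kb, the other acid lipases gave 4 of 8 for AAV-Cre and 7 of 8 for AAV-GFP. Several genes of this list had the same region as their nearest, among them the 124 bp AAV-GFP region near Lipo2. These were therefore not separate calls. None of the other lists of related genes had more genes in AAV-GFP than in AAV-Cre at this distance. All genes gave 62.2% and 47.2% there. The partners of vascular lipases gave 2 of 9 for AAV-Cre and 1 for AAV-GFP. The partners of intracellular lipolysis gave 2 of 14 and 1. The genes of lysosomal lipid handling gave 2 of 11 and 0.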

How the data were processed

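H3K27-me3 ChIP-seq of fasted liver was deposited as 2 peak lists, 1 per virus group, each made by the authors from both replicates with a pooled input as control. The authors mapped reads to mm10, filtered them and called narrow peaks with MACS in the AQUAS pipeline. The submitters' processing notes name BWA 0.7.13, SAMtools 1.2 and Picard 1.126. For each peak the deposited lists give the position, the fold over local input, the −log10 of a p-value and of a q-value, and a score, which was not used. Narrow calls split broad domains into several regions. No read counts were given, so depth is unknown.

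Groups were taken from the labels. Distances ran to start sites of basic protein-coding transcripts of GENCODE M21 (GRCm38, the assembly of mm10). An overlap of 1 bp or more made regions shared. CG counts used promoter sequences from RefSeq. The 8 genes and the gene lists were chosen with earlier results of these data known, and the named genes are the 8, the owners of the closest start sites or exons, and list members marked in 1 list only. A member of these lists was left out and is not reported here. Alternatives were q-value thresholds, equal region numbers, a minimum width, all transcripts, merging, other windows and stricter overlap. The functions were checked on simulated intervals, where 100% of calls equalled a direct search. Python 3.11.15, pandas 2.3.3 and numpy 2.4.6 were used.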

Additional observations from a re-analysis of the deposited data

How the results depend on the processing

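Of 73 values of the summary counts under alternatives, 49 stayed within 1.5 times of the reported value and 24 did not. With a q-value of 0.05 or lower, AAV-GFP regions near the lipases numbered 63 and those closest to a lipase start site 40. At 0.01 these were 44 and 28, AAV-GFP bases were 27600 and shared regions 20. With a width of at least 300 bp they were 56 and 39, with 21 shared regions. Merging regions within 1 kb left 34 AAV-Cre regions, 18 of them closest to a lipase, and 30 AAV-GFP regions, 13 of them closest, with 73008 AAV-GFP bases and 16 shared regions. Within 15 kb of a start site or over the body there were 29 AAV-Cre and 34 AAV-GFP regions. Asking for 0.5 of the region to be covered left 7 shared regions. Within 1 kb, 2 genes were marked in AAV-Cre and 0 in AAV-Cre only. Within 5 kb, 4 were marked in AAV-Cre and 2 (Lipc and Lipg) in AAV-Cre only. Within 50 kb, 6 were marked in AAV-GFP and 2 (Lipc and Mgll) in AAV-Cre only. Another window, merging or a stricter overlap moves these counts by construction, but the q-value thresholds did not lower both lists alike. AAV-Cre regions near the lipases numbered 68 at 0.05, against 63 AAV-GFP regions, and 62 at 0.01, against 44. With the minimum width they numbered 71 against 56. The larger AAV-GFP number, 104 against 71, was thus not kept in these settings. Lipc, Lipg and Mgll were marked in AAV-Cre only under both q-value thresholds, equal region numbers, the minimum width, all transcripts and merging, and Lipe was not at a q-value of 0.01, with equal numbers or with all transcripts. None of the 8 lipase genes was marked in AAV-GFP only in any of these alternatives.

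No paired analysis was possible because each list pools both mice of its group, and leaving out a replicate was not run for the same reason. Narrow regions depend on depth and on the peak call, which differed between the lists, so a gene with no region in a list had none detected at that list's unknown depth.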
